A study of Rattus norvegicus with 12 samples.

Results

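The gene described here is Sst, which encodes the neuropeptide somatostatin, 1 of the 32662 genes counted in laser-captured dorsal horn tissue of the rat. It was taken by its Ensembl identifier, ENSRNOG00000001837, and was singled out because its level differed between the regions studied, so that its difference between them is given as a description without a test. Poly(A) RNA was sequenced from 6 naive male Wistar Han rats aged 10 weeks, anaesthetised with pentobarbital and lidocaine 2 weeks after their arrival and perfused with cold saline. From each rat, 1 library was made from spinal cord dorsal horn (SC) and 1 from trigeminal nucleus caudalis (TNC), which gave 12 libraries in 6 within-rat pairs. All rats were untreated, and no group carried an allele or agent that the other lacked. The segment of the spinal cord, the borders of the captured areas and the laminae they held were not given in the sources used here.

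Somatostatin is a cyclic peptide cut from a larger precursor and released from dense-core vesicles. It acts on a family of G protein-coupled receptors that couple to inhibitory G proteins, open inwardly rectifying potassium channels and lower cyclic AMP. In the spinal dorsal horn it is known as a marker of a large population of excitatory interneurons in the superficial laminae, which take part in the transmission of mechanical pain, and some small-diameter primary sensory neurons also make it. The TNC, in the caudal medulla, is the counterpart of the dorsal horn for the face and the meninges, with the same laminar plan.

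Transcription of Sst is a textbook example of regulation by cyclic AMP, through a palindromic element bound by the factor CREB that was described at this gene. The element is shown here to place the gene by its sequence. The RefSeq promoter table (assembly GRCr8) has 1 entry for Sst, on the plus strand of chromosome 11, and holds 1 copy of the element TGACGTCA, in capitals below, in the 30 bases at chr11:90461537-90461566.
Sst: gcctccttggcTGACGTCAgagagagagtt
The element lay 3 to 10 bases from the start of the gene as annotated in that table, counting the start as base 1. Textbook accounts place the element upstream of the start of transcription, so the annotated start may not be the main one, and the position holds for this table only. The same letters, which read alike on both strands, occurred in 612 of 33469 promoters in the table (1.83%), each searched over 300 bases, 250 before and 50 from the annotated start. The libraries measured RNA and not the use of this element. The build used for the deposited counts was not given in the sources used here. No other gene in the RefSeq table overlapped Sst, which bears on its count because the strand setting of the counting was not given either.

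Sst was expressed in all 12 libraries and was higher in SC than in TNC in 6 of 6 rats, a pattern that 14% of the genes tested showed. In SC its reads numbered 5786, 7557, 5085, 8214, 7169 and 6295 in rats R101 to R106. In TNC the same rats had 2120, 2576, 1488, 3273, 3025 and 2521 reads. The smallest SC count thus exceeded the largest TNC count. On average 1 gene read in 1960 came from Sst in SC and 1 in 5054 in TNC.

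Expressed as CPM, the reads of a gene relative to library size after correction by trimmed mean of M values (TMM) factors, the levels in SC were 424, 592, 438, 648, 599 and 428 CPM in rats R101 to R106. The levels in TNC were 178, 219, 137, 280, 251 and 208 CPM in the same order. The mean was 521 ± 102.2 CPM in SC and 212 ± 50.8 CPM in TNC (SD, n = 6). The lowest SC library, of rat R101, held 1.51 times the level of the highest TNC library, of rat R104, so the regions did not overlap. Every SC library lay above every TNC library for 5.54% of the 13833 genes tested, and for 0.687% the ratio of the lowest SC to the highest TNC library was at least that of Sst. These shares are given as background only, since the gene was chosen on this contrast. In captured tissue that holds many cells, fewer Sst-expressing cells in TNC and less Sst RNA per cell cannot be told apart.

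**Figure D1:**
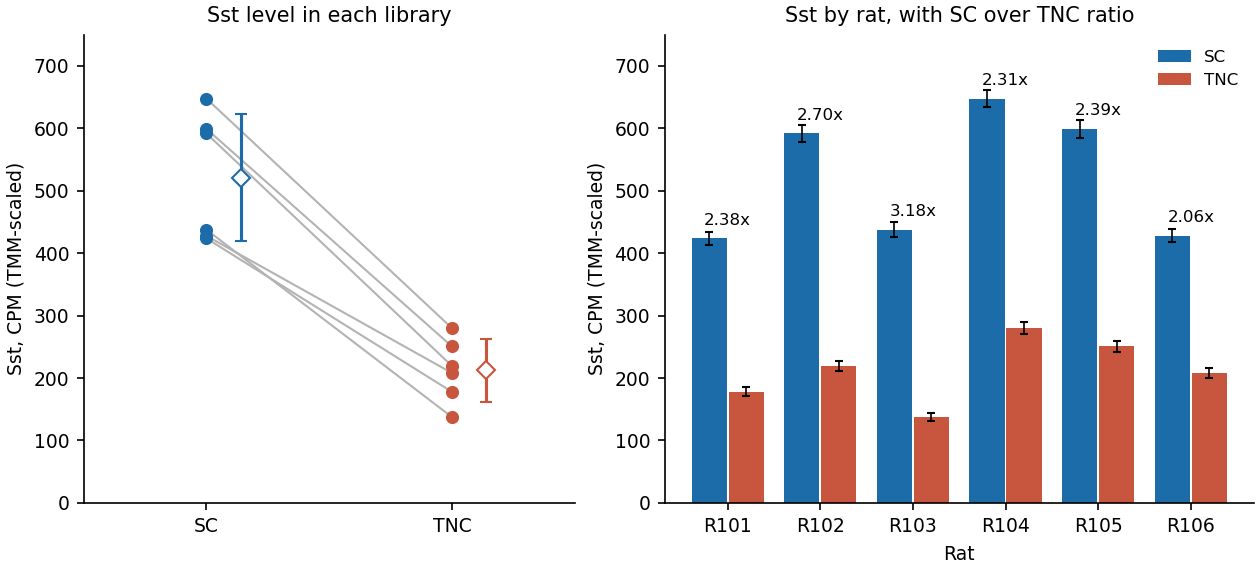
Sst level in CPM (TMM-scaled) by region (left; points are libraries, grey lines join the regions of 1 rat, diamonds and bars are mean and SD, n = 6) and by rat (right; error bars are 95% exact Poisson intervals and cover counting error only, and the numbers above the bars are the SC over TNC ratio). Levels of 424 to 648 CPM in SC lie above levels of 137 to 280 CPM in TNC, in every rat.

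Within rats, SC held 2.38, 2.70, 3.18, 2.31, 2.39 and 2.06 times the Sst level of TNC in rats R101 to R106. Rat R103 had the widest ratio and the lowest TNC level, and rat R106 the narrowest ratio. Expressed the other way, the TNC level was 40.7% ± 5.86 of the SC level of the same rat (SD, n = 6), from 31.4% to 48.6%. The mean within-rat difference of log2 CPM, TNC minus SC, was -1.31 with a standard error of 0.09 (n = 6), a 2.48-fold higher level in SC. The fold change fitted over all genes with the rat as a block was 2.47 (edgeR). As a difference in CPM, a relative measure, the SC level exceeded the TNC level by 309 ± 64.9 CPM (SD, n = 6), from 220 CPM in rat R106 to 372 CPM in rat R102. The coefficient of variation over rats was 15.6% for the ratio and 21.0% for the difference in CPM. Whether one was steadier than the other was not tested.

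Library measures moved with region and are given beside this result. Reads assigned to genes numbered 11563283 to 14591508 in SC and 11223405 to 12281556 in TNC. With all libraries thinned to the smallest total, the mean log2 difference of Sst was -1.30. The share of alignments that fell outside annotated genes was 14.999% ± 0.489 for SC and 13.2% ± 1.03 for TNC (SD, n = 6). In rat R102 this share differed by only -0.467 percentage points between TNC and SC, against -2.32 to -1.89 in the other rats. Its Sst ratio of 2.70 lay within the range of 2.06 to 3.18 of the other rats and was exceeded only in rat R103. The number of genes detected separated the regions, with 17262 to 17536 in SC and 16449 to 17070 in TNC, and so did the share of alignments to several places, with 13.46% to 13.75% and 12.65% to 13.35%. Beyond the thinning and a covariate fit given below, the part of these measures in the Sst difference was not tested. Markers of neurons, glia and other cell types were not examined, because the gene table at hand pairs 0 of the identifiers with a symbol. The labelled tissues could therefore not be checked against marker genes, and the part of cell composition in the Sst difference was not tested.

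Few abundant transcripts were higher in SC by as much as Sst. The blocked quasi-likelihood test of edgeR called 30.3% of the genes different between the regions (Benjamini-Hochberg adjusted p, threshold 0.05), and 2.69% did so with a 2-fold or larger difference in favour of SC, 372 genes in all. With a covariate for reads outside annotated genes beside the rat, an alternative chosen after seeing the data, the test called 64 genes in place of 4191. The fitted log2 difference of Sst was then -1.42, which leans on rat R102, where the covariate moved least with region. Without the covariate, the median size of the fitted log2 difference over all genes was 0.19, and that of Sst, 1.31, was larger than for 98.1% of them. Among the 2010 genes above 100 CPM on average, 4 were higher in SC by 2-fold or more, and Sst was 1 of them. Of the 2010 genes, 2 had a larger fitted difference in favour of SC than Sst, and over all 13833 genes 226 did. Sst provided 6.13% ± 0.727 of the reads of the 372 genes in SC, from 4.97% to 6.93%, and 8.49% ± 1.40 in TNC, from 5.99% to 9.96% (SD, n = 6). Its larger share in TNC shows that Sst differed by less than these genes did in sum. These positions describe the contrast on which the gene was chosen and add no support to it.

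**Figure D2:**
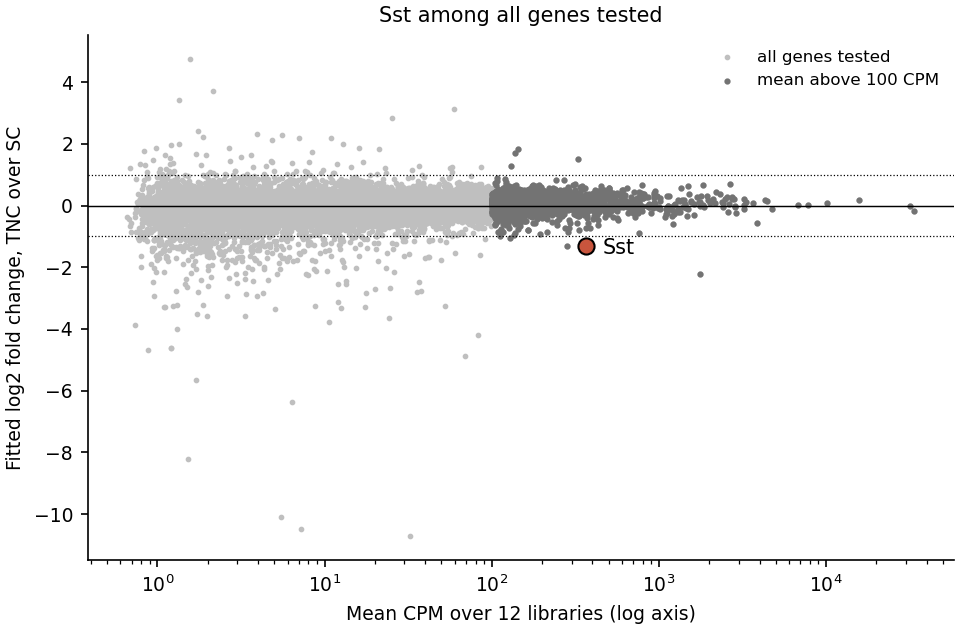
Fitted log2 fold change (TNC over SC) against mean CPM on a log axis for 13833 genes, with Sst as a large point, genes above 100 CPM in dark grey and dotted lines at a 2-fold difference. Sst lies at -1.31, below the dotted line that 4 genes above 100 CPM passed, and values of genes with 0 reads in a region carry no size.

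The level of Sst also varied between rats, and more so than that of most genes of like read number. The coefficient of variation over rats was 19.6% in SC and 23.9% in TNC, whereas that expected from counting alone was between 1.10% and 2.59% per library. A spread above counting error is no mark of Sst, since any 2 libraries of a region differed by more than sampling noise over all genes. The highest level exceeded the lowest 1.53-fold in SC and 2.04-fold in TNC. On the log2 scale the SD was 0.28 in SC and 0.37 in TNC. Pooled over the regions, the SD between rats of the same region was 0.33, against a median of 0.10 for the 785 genes with a mean CPM within 2-fold of Sst. The SD was smaller than that of Sst for 99.1% of those genes. This comparison does not use the difference between regions. It was made between genes of like read number, because counting error falls with the number of reads. Each rat gave 1 library per region, so differences between rats and between captures or library preparations cannot be told apart in this SD.

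**Figure D3:**
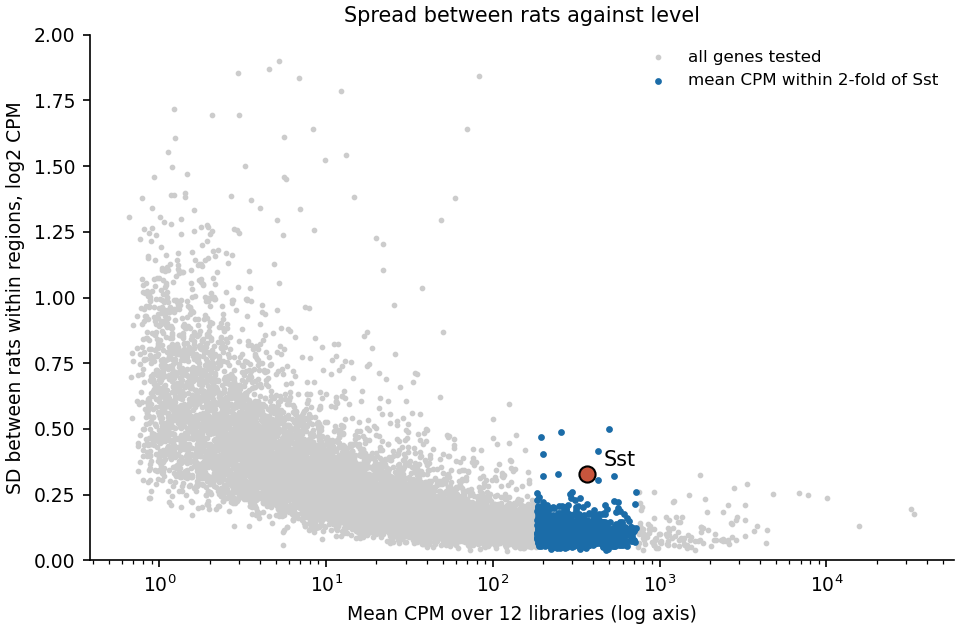
SD of log2 CPM between rats, pooled over SC and TNC, against mean CPM on a log axis, for the genes tested, with the 785 genes within 2-fold of the mean CPM of Sst in blue and Sst as a large point. Sst lies at 0.33, above most blue points with their median of 0.10; 4 genes lie beyond the upper end of the axis.

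The same rats stood high in both regions. In SC rat R104 was highest, followed by rats R105 and R102, and these rats took the same places in TNC. The remaining rats had a different order in each region: from high to low it was R103, R106 and R101 in SC and R106, R101 and R103 in TNC. The SC levels fell into separate clusters, 3 rats between 424 and 438 CPM and 3 between 592 and 648 CPM, and the gap of 154 CPM between the clusters took up 68.9% of the whole range. The TNC levels were spread more evenly, with a widest gap of 40.4 CPM, between rat R103 and the rest. A correlation between the regions over rats had been planned. It is not given, a choice made after the gap in SC was seen, because it would rest largely on the step across that gap. Within each group, 3 rats are too few for a correlation. Some neighbours in the order could not be told apart by their counting intervals. The 95% Poisson intervals of rats R101, R103 and R106 overlapped in SC, from 413 to 450 CPM in all, as did those of rats R102 and R105. In TNC the intervals of rats R102 and R106 overlapped, at 211 to 228 and 200.01 to 216 CPM, and those of the others did not touch.

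Region, rat and remainder took different shares of the variation of Sst than of most genes. Of the sum of squares of log2 CPM over the 12 libraries, 82.8% lay between the regions, 15.4% between rats and 1.88% in the remainder, which is the deviation of single libraries from their region and rat. The medians over all genes tested were 20.0%, 39.1% and 28.8%, and those over the 785 genes of like read number were 40.6%, 32.3% and 19.7%. The share between rats holds the step between the SC groups described above and is given as a description. The share of the region reflects the choice of the gene, and it lowers the other shares. Measured without it, the SD of the within-rat log2 differences was 0.22 for Sst, against a median of 0.26 over all genes and 0.13 over the 785 genes of like read number. The ratio between the regions was therefore less constant over rats for Sst than for 93.0% of the latter genes.

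Other genes followed Sst across libraries. Likeness was measured as the Pearson correlation of log2 CPM with Sst over the 12 libraries, among the 9539 genes that averaged 10 CPM or more. The libraries share rats and regions, and the difference between the regions carries much of the correlation, so it is given as a description. It reached 0.9 or more for 155 genes and -0.9 or less for 175, with a median of -0.07. The files do not pair the identifiers with symbols, so what these genes encode is not stated.

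The gene most like Sst was ENSRNOG00000005492, with a correlation of 0.98. It had 148 ± 8.06 CPM in SC and 96.2 ± 14.9 CPM in TNC (SD, n = 6), with 139 to 159 CPM and 74.1 to 112 CPM per library. It was higher in SC in 6 of 6 rats, by less than Sst, with a mean log2 difference of -0.63 (SE 0.08). The next was ENSRNOG00000000321, with a correlation of 0.97. It had 35.1 ± 4.64 CPM in SC and 12.1 ± 4.59 CPM in TNC (SD, n = 6), and a mean log2 difference of -1.61 (SE 0.20). Its ranges, 28.7 to 41.4 CPM in SC and 5.91 to 17.9 CPM in TNC, did not overlap either. A pick on this correlation favours genes that differ between the regions as Sst does.

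The genes most opposed to Sst were ENSRNOG00000031662, with a correlation of -0.98, and ENSRNOG00000004950, with -0.97. ENSRNOG00000031662 had 194 ± 21.9 CPM in SC and 345 ± 55.9 CPM in TNC (SD, n = 6). ENSRNOG00000004950 had 13.6 ± 2.07 CPM in SC and 21.7 ± 2.90 CPM in TNC. Both were higher in TNC in all rats, with mean log2 differences of 0.82 (SE 0.09) and 0.67 (SE 0.07). These genes and those most like Sst were picked by a correlation that holds the difference between the regions. Differences of this kind were therefore to be found and add no support. With the mean of each region taken off, the correlation with Sst over the 12 libraries was 0.90 for ENSRNOG00000005492, 0.87 for ENSRNOG00000000321, -0.89 for ENSRNOG00000031662 and -0.89 for ENSRNOG00000004950. The genes had been chosen on values that include these deviations, so high values were to be found and support nothing further. Over all 9539 genes the correlation of deviations ran from -0.92 to 0.97 with a median of -0.01, with 53 genes at 0.8 or more and 76 at -0.8 or less. Before the region means were taken off, 549 genes lay at 0.8 or more and 705 at -0.8 or less. How many genes another gene would reach at these bounds was not examined, so the counts are no mark of Sst.

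**Figure D4:**
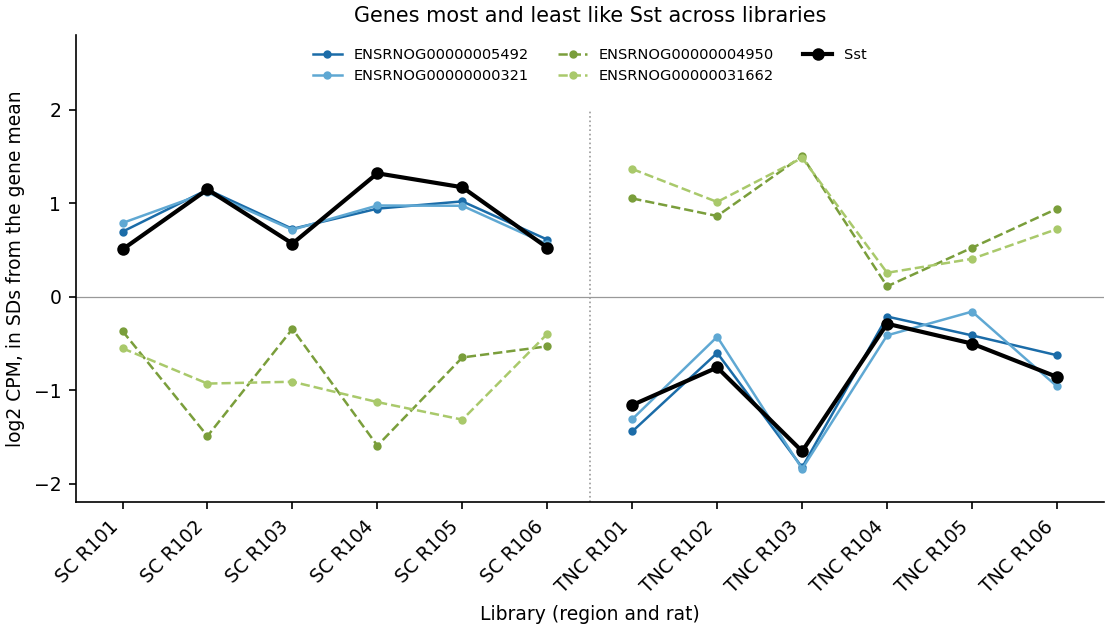
Log2 CPM of Sst (black), of the 2 genes most like it (blue, solid) and of the 2 most opposed to it (green, dashed) in each of the 12 libraries, in SDs from the gene's own mean over the libraries. In TNC, Sst and the blue lines are lowest in rat R103 while the dashed lines are highest there.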

How the data were processed

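Sst and the gene sets shown were chosen with earlier results of these data known. The authors deposited raw read counts per gene, 1 file per library. STAR and HTSeq are named in the submitters' processing notes, without versions, settings, genome build or annotation release. The 5 summary lines of each file name no gene and entered neither library sizes nor tests. They held the alignments outside annotated genes, 12.5% to 15.7% per library.

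The filter was filterByExpr of edgeR with a minimum count of 10, and 13833 genes with 99.9% of gene reads passed it. Log2 CPM used TMM factors and a prior count of 2. The blocked model of rat plus region had 5 residual degrees of freedom and was fitted with glmQLFit and glmQLFTest. It was also run on simulated counts with few changed genes and no rat effect, which could not check the block. The pairing comes from the rat numbers in the titles and the design text, by which each rat gave both regions. Deviations from region means correlated between 0.14 and 0.20 for the same rat and at most 0.05 for different rats. Chi-square per degree of freedom between libraries of a region was at least 5.62, so no library was treated as a duplicate.

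By the naming rule, without symbols only the 2 genes most and the 2 least like Sst are printed. The 22 gene lists of receptors, processing enzymes, peptides and cell types were not run, because 0 identifiers matched a symbol. Alternatives were other scalings, filters and tools, no block, thinning and each rat left out. A rat is 1 replicate. The versions were edgeR 4.0.16, DESeq2 1.42.0 and limma 3.58.1 under R 4.3.3.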

Additional observations from a re-analysis of the deposited data

Results flagged for a closer look

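Among 21 sets of 6 values (Sst reads, levels, ratios and differences, the levels of the 4 genes compared with Sst, gene reads and alignments outside annotated genes), 1 held a value far from the rest, where chance gives about 5% of sets. It was the TNC library of rat R102, with 15.2% of alignments outside annotated genes against 12.5% to 13.1% in the other TNC libraries. No Sst value stood apart in this way. The check covers only the highest and the lowest value of a set. It could not mark the gap among the SC levels of Sst, which lies in the middle of the set. Without rat R102 the mean log2 difference of Sst, TNC minus SC, was -1.29.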

How the results depend on the processing

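The mean within-rat log2 difference of Sst was -1.31 and lay between -1.37 and -1.24 with each rat left out, at -1.45 in rats R101 to R103 alone and at -1.16 in rats R104 to R106 alone. It was -1.31 with relative log expression scaling, -1.34 with upper-quartile scaling and -1.35 with totals only. The fitted value was -1.29 with no replicate block, in the same direction, -1.30 with limma voom and -1.31 with DESeq2. Over all genes, 4191 differed in the blocked fit, 3627 with no replicate block and 3406 to 3994 with a rat left out. A fit with the replicate block and, chosen after seeing the data, a covariate for reads outside annotated genes called 64 genes, and its value for Sst was -1.42. The covariate moved with region, by similar amounts within rats except in rat R102, so this fit leans on that rat. The cause was not tested. Genes at a correlation of 0.9 or more with Sst numbered 155, 150 to 206 over the alternatives with Pearson correlation, and fewer with Spearman correlation, and the percentile of the spread of Sst lay between 98.9% and 99.2%. The correlation of Sst between regions is not given, and the gene lists were not run. With 1488 or more Sst reads per library, counting error was at most 2.59%.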
